A study of Arabidopsis thaliana with 14 samples.

Results

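Jasmonates are lipid-derived plant hormones that act in the response to wounding and insect feeding and in stamen maturation. Synthesis starts in the chloroplast, where a 13-lipoxygenase (LOX2, LOX3, LOX4) adds oxygen to linolenic acid, allene oxide synthase (AOS) converts the product to an unstable epoxide, and allene oxide cyclase (AOC1, AOC2, AOC3) closes the ring to give OPDA. OPDA moves to the peroxisome, is reduced by OPR3, and loses carbon by beta-oxidation, for which acyl-CoA oxidase ACX1 does the first step; JAR1 then joins jasmonic acid to isoleucine, which makes the form that the receptor COI1 binds. Many genes of the pathway are themselves induced by jasmonate in Arabidopsis. The levels of these 10 genes, picked by locus identifier from the 33602 genes listed in each library, are described here across 6 genotypes.

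The libraries were made from poly-A RNA of Arabidopsis thaliana seedlings, 14 days old and grown in long days, all in the Col-0 cultivar. Wild type (Col) and the mutants hda6-6, hda5-1 and hda9-1 had 3 libraries each, and the mutants fve-4 and fld-6 had 1 library each. HDA6, HDA5 and HDA9 encode histone deacetylases of the RPD3 type, FVE a WD-repeat protein and FLD, by the study, a histone demethylase of the LSD1 type. The study asked whether FVE, FLD and HDA6 act on the same genes. By the study's methods hda6-6 (axe1-5) changes a splice site of HDA6, fve-4 holds a point mutation that stops translation early, and fld-6 carries a T-DNA insertion in FLD; the nature of the hda5-1 and hda9-1 lesions is not given in the sources used here. The study calls the libraries of Col and hda6-6 biological repeats, and nothing says so of hda5-1 and hda9-1, whose spread between libraries may be technical. The spread of each gene was pooled over all genotypes with 3 libraries. This limit therefore holds for the p-values of every comparison, which measure only the spread between the libraries at hand.

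The mutated genes were read first as a check of the labels. HDA6 had an RPKM (read density, scaled for exon length and for the mapped reads of the library) of 2.84 to 3.62 in hda6-6 and 8.58 to 10.01 in Col, HDA5 of 3.23 to 3.80 in hda5-1 and 10.1 to 10.9 in Col, HDA9 of 0.399 to 0.693 in hda9-1 and 4.39 to 5.65 in Col, and FVE of 0.227 in fve-4 and 20.9 to 22.3 in Col. In the library labelled fld-6, FLD stood at 3.52, between the lowest (3.42) and the highest (4.08) Col library, and therefore cannot check that label. Leaf photosynthesis genes summed to an RPKM of 26321 to 44740, root markers to 25.1 to 77.5 and flower markers to 2.39 to 9.13 in this labelled seedling tissue. No leaf or root marker was at 0 throughout any genotype, while 3 of 7 flower markers were listed at 0 in fve-4 and 2 of 7 in the library labelled fld-6. All 10 jasmonate genes passed the filter on low values (RPKM above 0.1 in at least 3 libraries), and the lowest single value, LOX4 in fve-4, stood for about 47 reads at the depth estimated from the files (17800000 to 25500000 mapped reads a library).

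The genes lie on all 5 chromosomes (TAIR10.1, RefSeq annotation), and AOC1 (AT3G25760, chr3:9403779-9405338), AOC2 (AT3G25770, chr3:9406669-9408071) and AOC3 (AT3G25780, chr3:9409160-9411090) follow one another on the plus strand of chromosome 3. LOX3 (AT1G17420, chr1:5977323-5981521) and LOX4 (AT1G72520, chr1:27308513-27312756) lie far apart on chromosome 1 and OPR3 (AT2G06050, chr2:2359114-2362375) on the minus strand of chromosome 2. No other annotated gene overlaps any of the 10, although the use of strand in counting is not stated. The encoded proteins of AOC1 and AOC2 are 89.3% identical over 253 aligned residues and those of LOX3 and LOX4 84.2% over 918. Their transcripts share no identical stretch of 50 bases, whereas AOC1 and AOC3 share 24 of the 1142 windows of that length in AOC1 (2.1%), so reads from those windows could be placed on either gene.

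The 250 bases before the annotated starts of AOC1, AOC2, AOS and LOX4 are shown because the first 3 of these genes varied together over the libraries and because AOC1, AOS and LOX4 hold a core of the G-box type, the element that MYC2-type factors of the jasmonate response bind. They were read 5′ to 3′ on the gene's strand from TAIR10.1, and capitals mark exact matches to CACGTG or AACGTG on either strand.
AOC1 chr3:9403529-9403778 (+ strand): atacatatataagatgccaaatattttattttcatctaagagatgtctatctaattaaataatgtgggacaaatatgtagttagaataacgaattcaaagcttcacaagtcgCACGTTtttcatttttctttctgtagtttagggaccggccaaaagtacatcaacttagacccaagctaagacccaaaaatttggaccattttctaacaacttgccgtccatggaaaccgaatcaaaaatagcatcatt
AOC2 chr3:9406419-9406668 (+ strand): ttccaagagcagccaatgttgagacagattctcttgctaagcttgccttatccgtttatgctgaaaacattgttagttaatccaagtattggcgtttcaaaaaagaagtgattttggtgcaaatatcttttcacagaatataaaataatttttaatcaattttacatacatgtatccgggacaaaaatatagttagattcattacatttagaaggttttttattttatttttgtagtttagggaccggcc
AOS chr5:17099596-17099845 (- strand): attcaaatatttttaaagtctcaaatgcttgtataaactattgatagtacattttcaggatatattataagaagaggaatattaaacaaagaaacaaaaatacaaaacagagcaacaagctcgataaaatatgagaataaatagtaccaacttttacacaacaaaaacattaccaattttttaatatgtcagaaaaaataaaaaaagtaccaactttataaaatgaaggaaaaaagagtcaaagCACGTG
LOX4 chr1:27308263-27308512 (+ strand): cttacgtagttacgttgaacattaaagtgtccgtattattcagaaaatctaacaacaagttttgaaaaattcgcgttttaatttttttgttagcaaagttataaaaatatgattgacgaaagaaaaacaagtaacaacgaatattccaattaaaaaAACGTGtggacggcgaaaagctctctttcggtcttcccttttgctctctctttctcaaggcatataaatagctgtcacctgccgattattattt

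Over a window from 250 bases before to 50 after the start, CACGTG was present in AOS and ACX1 and in 7.68% of 27431 gene starts. AACGTG was present in LOX3, LOX4, AOC1 and AOC2 and in 8.95% of gene starts. GCCGCC, the GCC-box, was in none of the 10 and in 2.57% of gene starts. In LOX3 and AOC2 the match lies after the start and is not printed. The longest stretch shared by any pair of the 10 upstream windows was that of AOC1 and AOC2, 19 bases long, beginning 117 bases before the AOC1 start and 19 bases before the AOC2 start, and the next longest in any pair had 11 bases.
AOC1 and AOC2 shared stretch: TGTAGTTTAGGGACCGGCC

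Each mutant was compared with Col to ask which steps of the pathway differ in transcript level, and calls needed both a change of at least 2-fold and an adjusted p (limma, Benjamini-Hochberg over the 23187 genes tested) under 0.05. Of the 50 gene and mutant combinations 17 were called, all higher in the mutant, and none was called lower. AOC1 and OPR3 were called in 4 of 5 mutants, AOC2 in 3, AOS in 2, LOX2, LOX3, LOX4 and AOC3 in 1 each, and ACX1 and JAR1 in none. The 5 comparisons share the 3 Col libraries, so they are not independent of one another. In whole seedlings, more cells of a type and more RNA per cell cannot be told apart.

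**Figure D1:**
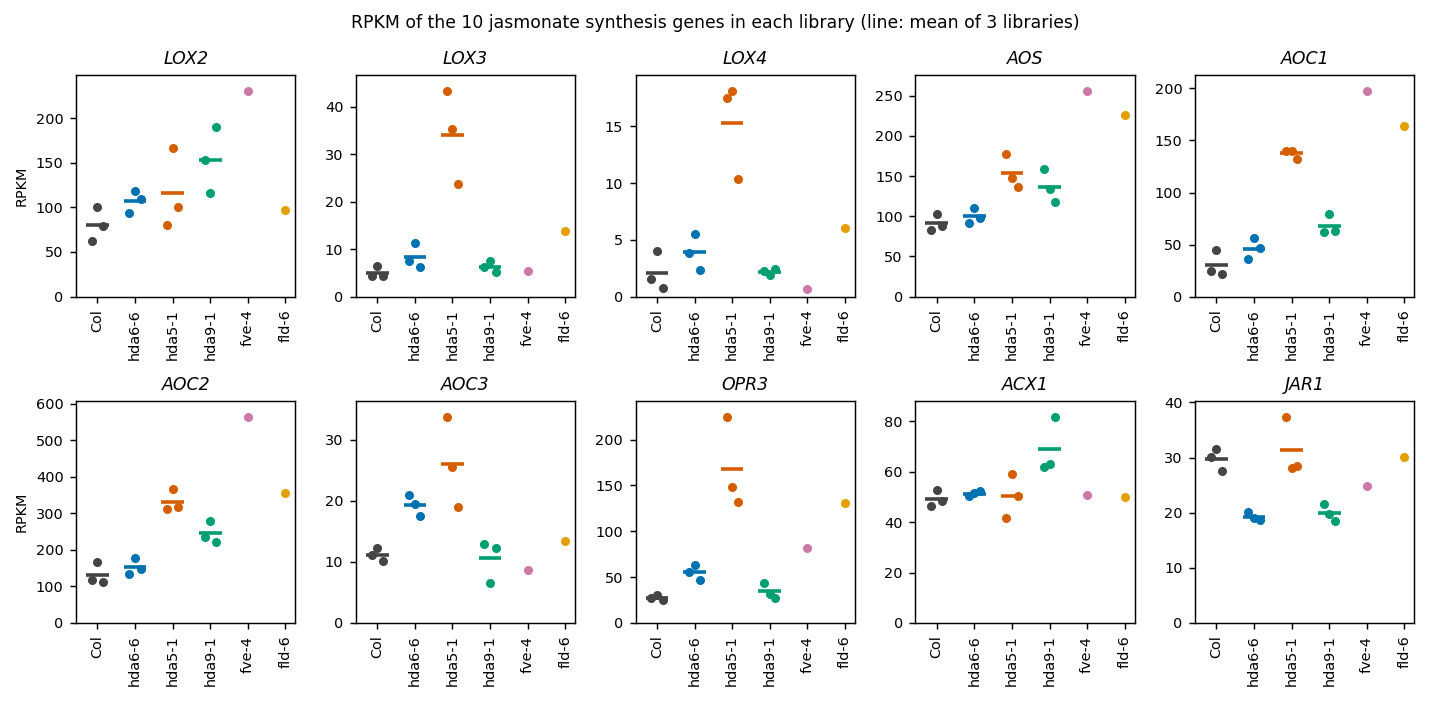
RPKM of each of the 10 genes (vertical axes from 0, one scale per gene) in each library, with the mean of genotypes that have 3 libraries as a line. LOX3, LOX4 and OPR3 are highest in hda5-1, while AOS, AOC1 and AOC2 are highest in fve-4.

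In the hda5-1 comparison 6 of the 10 genes were higher (LOX3, LOX4, AOC1, AOC2, AOC3 and OPR3), where 5.51% of all genes tested were called higher and 3.94% lower, and the median log2 fold change was 1.26 over the 10 genes and 0.04 over all genes. In fve-4 5 of 10 were higher (LOX2, AOS, AOC1, AOC2 and OPR3), beside 3.9% of all genes higher and 3.98% lower, with a median of 0.82 over the 10 and 0.19 over all genes. In the library labelled fld-6 4 of 10 were higher (AOS, AOC1, AOC2 and OPR3), beside 0.677% higher and 1.13% lower, with medians of 1.38 and 0.02. In hda9-1 only AOC1 was called, beside 2.1% higher and 3.75% lower, with medians of 0.40 and 0.08. In hda6-6 only OPR3 was called, beside 7.95% higher and 4.96% lower, so that 1 of 10 is near the background there, with medians of 0.54 and 0.05. Dividing each library by a median-of-ratios factor brought the all-gene median of fve-4 from 0.19 to 0, and the same number of jasmonate genes, 5, was called in it.

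The first step was split between its enzymes. LOX2, the major lipoxygenase of wounded leaves, had an RPKM of 62.3, 101 and 78.8 in Col, of 93.6, 119 and 109 in hda6-6, of 80.03, 167 and 101 in hda5-1, of 153, 116 and 190 in hda9-1, of 230 in fve-4 and 96.6 in the library labelled fld-6. The fve-4 value lay above every other library and all hda9-1 values lay above Col, while the hda5-1, hda6-6 and fld-6 values overlapped Col. LOX2 rose in fve-4 by 1.54 ± 0.37 (log2 fold change ± SE, 1 library with a borrowed spread, limma adjusted p = 0.012), and in hda9-1 it had 0.92 ± 0.26 (adjusted p = 0.023), under the 2-fold limit, which it passed without Col replicate 2 (1.10) or hda9-1 replicate 2 (1.11).

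LOX3 and LOX4, a pair of close relatives that act in fertility and wounding, had another pattern. LOX3 had an RPKM of 4.28, 6.54 and 4.30 in Col, of 43.4, 35.3 and 23.7 in hda5-1, of 7.50, 11.4 and 6.18 in hda6-6, of 6.19, 7.45 and 5.11 in hda9-1, of 5.48 in fve-4 and 13.8 in the library labelled fld-6. The lowest hda5-1 value was above each value of the other genotypes. LOX3 rose in hda5-1 by 2.72 ± 0.27 on the log2 scale, a 6.59-fold change (limma adjusted p = 1.9e-05), and in the library labelled fld-6 it had 1.46 ± 0.38 (adjusted p = 0.061).

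LOX4 was the lowest of the 10 genes, with an RPKM of 1.53, 4.01 and 0.801 in Col and of 17.5, 18.1 and 10.3 in hda5-1. It stood at 3.81, 5.50 and 2.35 in hda6-6, at 2.26, 1.91 and 2.45 in hda9-1, at 0.662 in fve-4 and at 6.02 in the library labelled fld-6. As for LOX3, no hda5-1 value overlapped another genotype. LOX4 rose in hda5-1 by 3.04 ± 0.46 (8.20-fold, limma adjusted p = 0.00044) and had 1.05 ± 0.46 in hda6-6 (adjusted p = 0.10), 1.75 ± 0.65 in the library labelled fld-6 (adjusted p = 0.20) and -1.26 ± 0.65 in fve-4 (adjusted p = 0.19). Without Col replicate 2, LOX4 was called in hda6-6 (1.64) and in the library labelled fld-6 (2.34).

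LOX6, the other 13-lipoxygenase, was not called in any mutant and lay between 12.4 and 21.2. Because RPKM is per length, the shares of the 4 transcripts within a library can be read: LOX2 made up 79.4% of their sum in Col, 63.1% in hda5-1 and 90.5% in fve-4, and LOX3 with LOX4 went from 4.97% and 1.97% in Col to 19.5% and 8.58% in hda5-1. In fve-4 LOX3 and LOX4 were at 2.15% and 0.260% of the sum.

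AOS, the single allene oxide synthase gene, had an RPKM of 82.7, 103 and 87.5 in Col, of 92.1, 110 and 97.8 in hda6-6, of 177, 148 and 136 in hda5-1, of 159, 134 and 117 in hda9-1, of 256 in fve-4 and 225 in the library labelled fld-6. All libraries but those of hda6-6 lay above Col, and the 2 single-library mutants lay above all others. Of all genes tested, 50.4% lay above Col in fve-4 and 34.3% in the library labelled fld-6. AOS rose in fve-4 by 1.50 ± 0.19 and in the library labelled fld-6 by 1.31 ± 0.19 (2.82-fold and 2.49-fold, limma adjusted p = 0.00042 and 0.0035). In hda5-1 and hda9-1 it had 0.75 ± 0.14 and 0.58 ± 0.14, past the p limit (adjusted p = 0.0014 and 0.0086) and under 2-fold.

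AOC2 was the most abundant of the 10 genes in every genotype by mean RPKM, and AOC1, AOC2 and AOC3 encode enzymes of one reaction. AOC1 had an RPKM of 24.3, 44.8 and 21.7 in Col, of 35.7, 56.1 and 46.2 in hda6-6, of 140.2, 139.98 and 132 in hda5-1, of 61.7, 79.2 and 63.1 in hda9-1, of 198 in fve-4 and 164 in the library labelled fld-6. The order of genotype levels was fve-4, fld-6, hda5-1, hda9-1, hda6-6 and Col, in which only hda6-6 and Col overlapped. AOC1 rose by 2.78 ± 0.33 in fve-4, 2.51 ± 0.33 in the library labelled fld-6, 2.25 ± 0.24 in hda5-1 and 1.23 ± 0.24 in hda9-1 (limma adjusted p = 0.00029, 0.0021, 2.9e-05 and 0.0029). In hda6-6 it had 0.65 ± 0.24 (adjusted p = 0.051).

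AOC2 had an RPKM of 116, 168 and 113 in Col, of 134, 178 and 148 in hda6-6, of 311, 366 and 317 in hda5-1, of 236, 279 and 223 in hda9-1, of 563 in fve-4 and 356 in the library labelled fld-6. The order was that of AOC1, but the fld-6 value lay within the hda5-1 range, and hda6-6 again overlapped Col. AOC2 rose by 2.11 ± 0.22 in fve-4, 1.45 ± 0.22 in the library labelled fld-6 and 1.34 ± 0.16 in hda5-1 (limma adjusted p = 0.00015, 0.0050 and 7.0e-05), and had 0.91 ± 0.16 in hda9-1 (adjusted p = 0.0016), which passed 2-fold without Col replicate 2 (1.09).

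AOC3 did not follow its neighbours. It had an RPKM of 11.1, 12.2 and 10.1 in Col, of 21.0, 19.4 and 17.5 in hda6-6, of 33.7, 25.5 and 19.01 in hda5-1, of 12.8, 6.55 and 12.3 in hda9-1, of 8.70 in fve-4 and 13.5 in the library labelled fld-6. Its hda6-6 and hda5-1 values lay above all Col values, and the fve-4 value, where AOC1 and AOC2 were highest, lay below them. AOC3 rose in hda5-1 by 1.19 ± 0.25 (limma adjusted p = 0.0036; 0.98 without hda5-1 replicate 1, under 2-fold) and had 0.79 ± 0.25 in hda6-6 (adjusted p = 0.027), -0.13 ± 0.25 in hda9-1 (adjusted p = 0.74) and -0.35 ± 0.35 in fve-4 (adjusted p = 0.52).

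The summed RPKM of AOC1 to AOC4 was 181 to 259 in Col, 220 to 278 in hda6-6, 491 to 557 in hda5-1, 328 to 388 in hda9-1, 796 in fve-4 and 576 in the library labelled fld-6. AOC2 held 61.8% to 70.7% of this sum in all genotypes by mean share, AOC1 went from 14.2% in Col to 28.5% in the library labelled fld-6, and AOC4, which was called in no mutant, went from 16.9% in Col to 3.43% in fve-4.

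**Figure D2:**
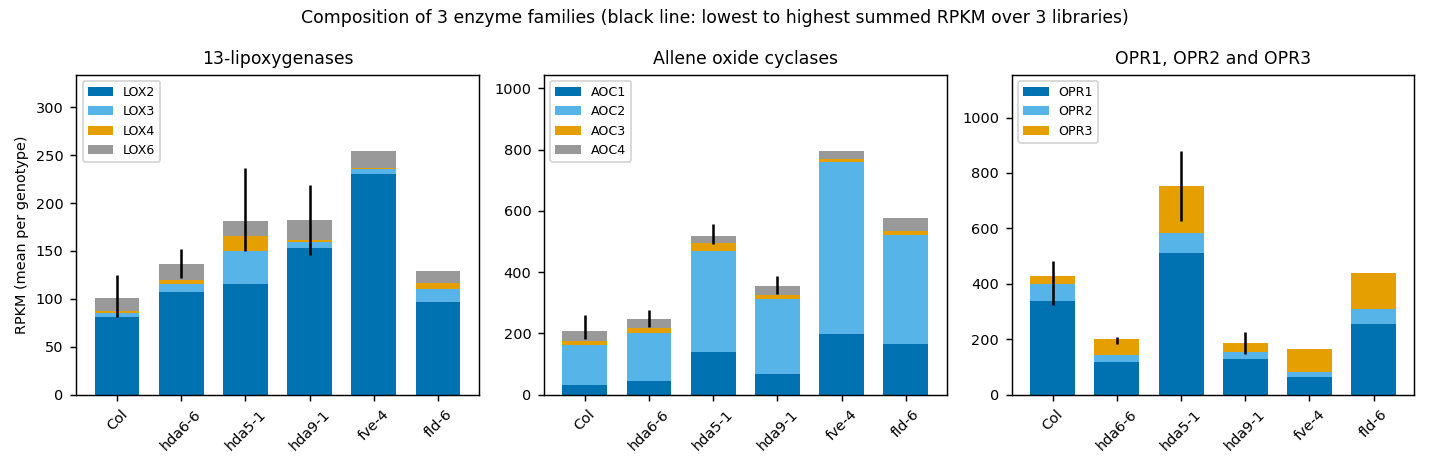
Mean RPKM per genotype of each transcript of 3 enzyme families, stacked from 0, with the range of the summed RPKM over 3 libraries as a black line. AOC2 is the largest part of the cyclase sum in each genotype, and OPR3 takes a larger part of the OPR sum in all 5 mutants than its 6.54% in Col.

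OPR3, the reductase that acts on OPDA, was highest in hda5-1 and lowest in Col. It had an RPKM of 26.9, 30.8 and 24.5 in Col, of 56.1, 63.0 and 46.8 in hda6-6, of 224, 149 and 132 in hda5-1, of 44.1, 31.3 and 27.7 in hda9-1, of 81.8 in fve-4 and 131 in the library labelled fld-6. Only the hda9-1 values overlapped Col, and the fld-6 value fell just below the lowest of hda5-1. OPR3 rose by 2.58 ± 0.21 in hda5-1 (5.98-fold), 2.26 ± 0.30 in the library labelled fld-6, 1.58 ± 0.30 in fve-4 and 1.00 ± 0.21 in hda6-6 (2.01-fold; limma adjusted p = 5.2e-06, 0.0020, 0.0035 and 0.0029). The hda6-6 call sat on the 2-fold limit and was lost without Col replicate 1 (0.99) or 3 (0.93) and without hda6-6 replicate 1 (0.99) or 2 (0.91).

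OPR1 and OPR2, relatives of OPR3 whose enzymes do not act on the natural OPDA isomer as OPR3 does, moved otherwise. OPR1 had a mean RPKM of 338 ± 75.3 (SD, n = 3) in Col, against 117 ± 7.85 (SD, n = 3) in hda6-6, 130 ± 25.6 (SD, n = 3) in hda9-1, 512 ± 80.3 (SD, n = 3) in hda5-1, and 62.4 in fve-4. In hda6-6, hda9-1 and fve-4, OPR1 had log2 fold changes of -1.51, -1.37 and -2.41 and OPR2 of -1.15, -1.48 and -1.70, and all 6 were called. OPR3 thus went from 6.54% of the 3 OPR transcripts in Col to 27.6% in hda6-6 and 50.2% in fve-4.

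ACX1 and JAR1, at the end of the pathway, were called in no mutant. ACX1 lay between 41.6 and 63.1 in all libraries except 1 and at 81.6 in hda9-1 replicate 3, and it had 0.48 ± 0.13 in hda9-1 (limma adjusted p = 0.021), with all 3 values above Col, and between 0.024 and 0.064 in the other mutants. JAR1 had an RPKM of 30.1, 31.6 and 27.6 in Col, of 20.2, 19.0 and 18.7 in hda6-6 and of 21.6, 19.7 and 18.6 in hda9-1, with no overlap. It had -0.62 ± 0.11 in hda6-6 and -0.57 ± 0.11 in hda9-1 (limma adjusted p = 0.0012 and 0.0035), both under 2-fold, and 37.3, 28.1 and 28.5 in hda5-1, 24.8 in fve-4 and 30.09 in the library labelled fld-6.

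**Figure D3:**
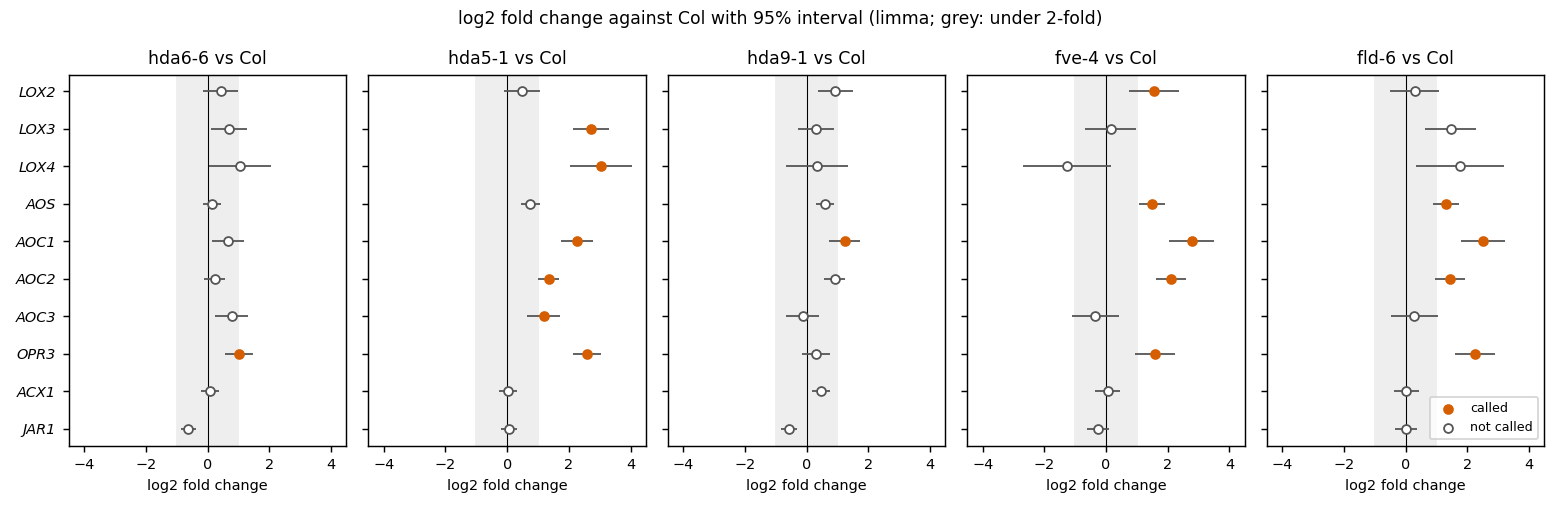
log2 fold change of the 10 genes against Col with the 95% interval of the limma fit, 1 panel a mutant; filled points were called and the grey band marks changes under 2-fold. The 17 filled points all lie right of 0, with 6 in hda5-1 and 1 each in hda6-6 and hda9-1.

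The 3 deacetylase mutants were also compared directly, since a call in one and not in another does not show a difference. Against hda5-1, hda6-6 was lower in 5 of the 10 genes (LOX3, LOX4, AOC1, AOC2 and OPR3) and higher in none, where 1.67% of all genes tested were lower and 3.68% higher. The log2 differences were -2.02 ± 0.27 for LOX3, -1.99 ± 0.46 for LOX4, -1.60 ± 0.24 for AOC1, -1.11 ± 0.16 for AOC2 and -1.58 ± 0.21 for OPR3 (limma adjusted p from 0.00030 to 0.014). LOX4 was not called without hda5-1 replicate 2 (-1.84, adjusted p = 0.056) or without hda6-6 replicate 3 (-1.67, adjusted p = 0.067). JAR1 and AOS had -0.69 ± 0.11 and -0.61 ± 0.14 (adjusted p = 0.0016 and 0.010), under 2-fold.

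Against hda9-1, hda5-1 was higher in 5 of the 10 genes (LOX3, LOX4, AOC1, AOC3 and OPR3), where 4.27% of all genes were higher and 1.99% lower. LOX3, LOX4 and OPR3 had log2 differences of 2.40 ± 0.27, 2.70 ± 0.46 and 2.28 ± 0.21, AOC3 had 1.32 ± 0.25 and AOC1 1.02 ± 0.24 (limma adjusted p from 3.4e-05 to 0.0096). The AOC1 call was lost without hda9-1 replicate 1 (0.96) or 3 (0.98). JAR1 (0.64 ± 0.11, adjusted p = 0.0024) and ACX1 (-0.45 ± 0.13, adjusted p = 0.031) passed the p limit under 2-fold, with ACX1 lower in hda5-1. AOS, AOC2 and LOX2 did not pass it, with differences of 0.17 (95% interval -0.12 to 0.47), 0.43 (0.09 to 0.78) and -0.44 (-1.01 to 0.13).

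Between hda6-6 and hda9-1 no gene of the 10 was called by limma, beside 6.15% of all genes higher and 1.79% lower in hda6-6; 6 of the 10 had an unadjusted p under 0.05 and 5 an adjusted p under 0.05. Those 5 split in direction, with AOC3 and OPR3 higher in hda6-6 (0.92 ± 0.25 and 0.70 ± 0.21) and AOS, AOC2 and ACX1 lower (-0.44 ± 0.14, -0.68 ± 0.16 and -0.41 ± 0.13). AOC3 passed 2-fold without hda9-1 replicate 1 (1.09) or 3 (1.06).

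**Figure D4:**
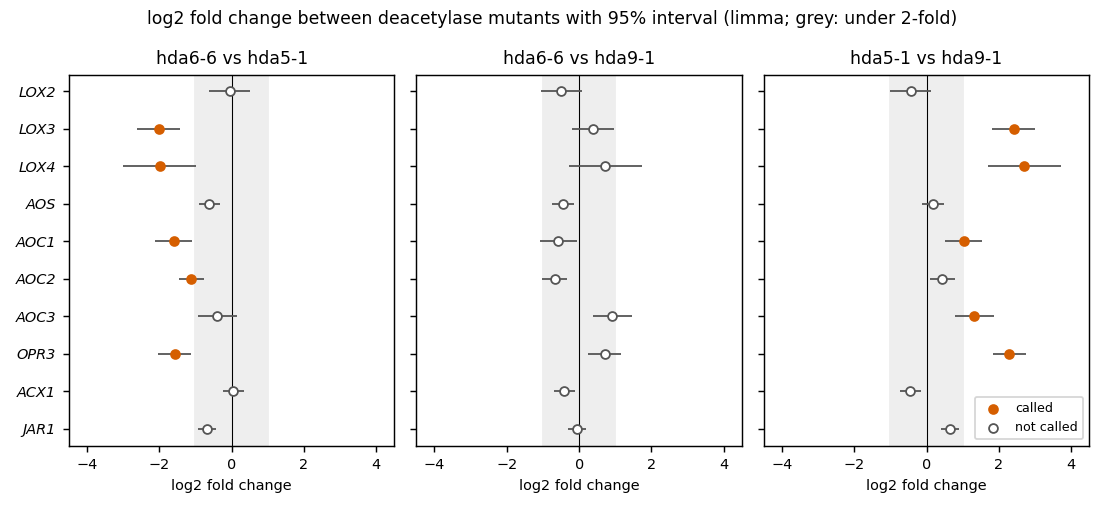
log2 fold change of the 10 genes between the deacetylase mutants with the 95% interval of the limma fit; filled points were called and the grey band marks changes under 2-fold. The filled points are 5 in each comparison that holds hda5-1, with hda5-1 on the high side, and 0 between hda6-6 and hda9-1.

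Across the 14 libraries the 10 genes fell into sets that rose and fell together, given as Pearson r of log2(RPKM + 0.1) and as a description, since libraries of one genotype share their group level. AOC1 and AOC2 had r = 0.97, AOS had 0.91 with AOC1 and 0.93 with AOC2, and LOX3 had 0.92 with LOX4 and 0.90 with OPR3. AOC3 had 0.83 with LOX4 and 0.76 with LOX3, but 0.22 with AOC1 and 0.04 with AOC2, its neighbours on the chromosome. OPR3 stood between the sets, with 0.80 with AOC1. The lowest r of any pair was -0.62, for ACX1 and JAR1.

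**Figure D5:**
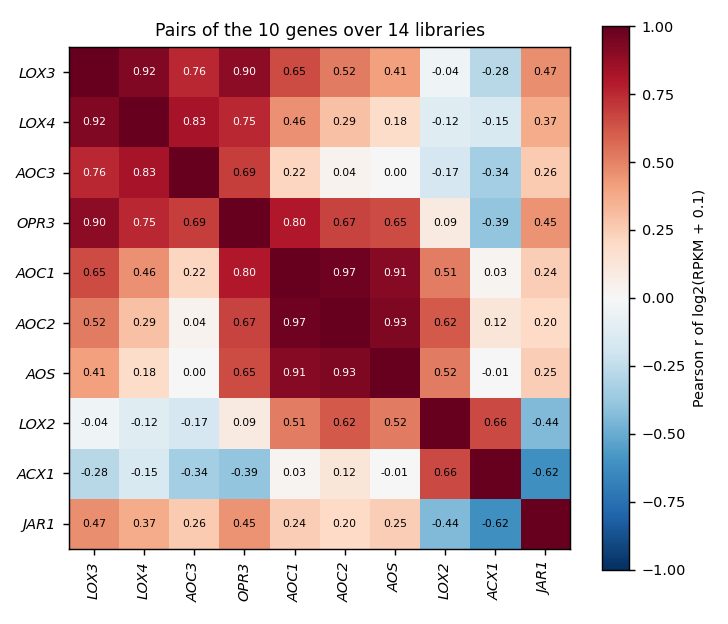
Pearson r of log2(RPKM + 0.1) for each pair of the 10 genes over 14 libraries, red for positive and blue for negative. One block holds LOX3, LOX4, AOC3 and OPR3 (r from 0.69 to 0.92) and another AOC1, AOC2 and AOS (0.91 to 0.97).

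Of 15865 other genes with a mean RPKM of at least 2, the one most like AOC1, AOC2 and AOS in this measure was the same, AT4G03420, with r of 0.94, 0.95 and 0.93. The next for AOC1 were AT1G62330 (0.92) and AT3G20890 (0.91), for AOC2 AT2G22080 (0.90) and PRA1.E (0.89), and for AOS AT5G40710 (0.91) and AT1G15860 (0.90). OPR3 was most like AT5G54170 (0.97), CP12-3 (0.95) and NADK1 (0.93).

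Of 17 other synthesis and lipoxygenase genes tested, hda5-1 had 1 higher and none lower, hda6-6, hda9-1 and fve-4 each had 2 lower (OPR1 and OPR2) and none higher, and the library labelled fld-6 had none in either direction. The 1 of 17 in hda5-1 is near the 5.51% of all genes called higher there, and the median log2 fold change of the 17 was -0.14 in hda6-6, -0.077 in hda5-1, -0.054 in hda9-1, -0.16 in fve-4 and -0.11 in the library labelled fld-6, where the medians over all genes ran from 0.02 to 0.19. Of all genes, 4.96% were called lower in hda6-6, 3.75% in hda9-1 and 3.98% in fve-4. The gene higher in hda5-1 was OPCL1, whose ligase activates the OPR3 product for beta-oxidation, with an RPKM of 52.2, 53.3 and 37.6 against 18.1, 24.7 and 16.8 in Col (log2 fold change 1.26 ± 0.19, limma adjusted p = 0.00035).

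Genes that remove jasmonate or split its conjugates were called only in the higher direction: of 11 tested, 2 in hda6-6, 3 in hda5-1, 2 in hda9-1, 3 in fve-4 and 4 in the library labelled fld-6, beside 7.95%, 5.51%, 2.1%, 3.9% and 0.677% of all genes called higher. The medians of the 11 were 0.42, 0.52, 0.54, 0.15 and 1.24 in that order, that of fve-4 below its all-gene median. ILL6, an amidohydrolase that splits jasmonoyl-isoleucine, had a mean RPKM of 11.1 ± 1.46 (SD, n = 3) in Col, against 25.5 ± 2.66 (SD, n = 3) in hda5-1, 32.8 in fve-4 and 50.7 in the library labelled fld-6, and rose there by 2.30-fold, 2.96-fold and 4.58-fold. JOX2, an oxidase that hydroxylates jasmonic acid, rose in fve-4 (1.11) and in the library labelled fld-6 (1.54), its relative JOX4 in hda6-6 (2.61) and hda9-1 (1.77), and CYP94B3, which oxidises the active conjugate, in hda6-6 (1.22) and hda5-1 (1.35). JOX4 and CYP94B3 were low, with an RPKM of 0.103 to 0.476 and 0.624 to 0.776 in Col. IAR3, at 25.0 to 33.5 in Col, rose in hda5-1 (1.195), hda9-1 (1.01), fve-4 (1.32) and the library labelled fld-6 (1.33). In hda6-6 IAR3 had 0.80, under 2-fold.

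Of 11 genes of perception and signaling, 2 were called lower in each deacetylase mutant (MYC2 and ORA47) and 1 in each of fve-4 and the library labelled fld-6 (ORA47), and none higher, beside 4.96%, 3.94%, 3.75%, 3.98% and 1.13% of all genes called lower in hda6-6, hda5-1, hda9-1, fve-4 and the library labelled fld-6. The medians of the 11 were -0.41, -0.22, 0.17, 0.11 and -0.027 in that order, so that the counts rest on these 2 genes. MYC2, the main transcription factor of the response, had an RPKM of 83.6, 106 and 69.2 in Col, of 25.8 to 30.1 in hda6-6, of 27.1 to 32.9 in hda5-1, of 31.0 to 32.6 in hda9-1, of 43.8 in fve-4 and 71.4 in the library labelled fld-6. It fell by 1.60, 1.55 and 1.42 on the log2 scale in the 3 deacetylase mutants. ORA47, an AP2/ERF factor that activates synthesis genes, had an RPKM of 133 to 204 in Col and of 1.35 to 11.9 in the mutant libraries, and was lower in all 5 comparisons.

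Of the 13 JAZ genes, which encode repressors of the response and are themselves jasmonate-induced, hda6-6 had 1 higher and 2 lower, hda5-1 2 and 2, hda9-1 0 and 3, fve-4 0 and 1, and the library labelled fld-6 4 and 0. In that order 7.95%, 5.51%, 2.1%, 3.9% and 0.677% of all genes were higher and 4.96%, 3.94%, 3.75%, 3.98% and 1.13% lower. The 1 higher gene of 13 in hda6-6 and the 1 lower in fve-4 are near those shares. The medians of the 13 were -0.22, 0.21, -0.068, 0.14 and 1.36 in that order. JAZ10 rose in hda6-6 (1.10), hda5-1 (1.11) and the library labelled fld-6 (1.93), JAZ2 rose in hda5-1 (1.07) and the library labelled fld-6 (1.58), JAZ7 fell by 1.55 in hda9-1, and JAZ13 fell by 1.93, 2.58 and 1.28 in hda6-6, hda5-1 and hda9-1. JAZ13 was near the floor, with an RPKM of 0.210 to 0.915 in Col and 0 in hda5-1. JAZ1, at 50.1 to 93.4 in Col, was lower in hda6-6 (-1.15), hda5-1 (-1.09), hda9-1 (-1.35) and fve-4 (-1.24).

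Of the 13 genes of jasmonate output, hda6-6 had 0 higher and 1 lower, hda5-1 1 and 3, hda9-1 0 and 1, fve-4 0 and 2, and the library labelled fld-6 0 and 0. The 1 lower gene of 13 in hda6-6 and in hda9-1 is near the 4.96% and 3.75% of all genes called lower there, and the medians of the 13 were -0.37, -0.31, -0.11, 0.034 and 0.41 in the same order. Of all genes, 5.51% were called higher and 3.94% lower in hda5-1, and 3.98% lower in fve-4. The 1 higher gene in hda5-1 is near that share. VSP2, a vegetative storage protein gene used as a jasmonate marker, had an RPKM of 278, 339 and 265 in Col, of 186, 184 and 267 in hda6-6, of 143, 172 and 145 in hda5-1, of 1023, 278 and 603 in hda9-1, of 92.7 in fve-4 and 481 in the library labelled fld-6. It fell by 1.66 on the log2 scale in fve-4 (limma adjusted p = 0.033) and was not called in hda5-1 (-0.93, adjusted p = 0.071), hda9-1 (0.93, adjusted p = 0.074), hda6-6 (-0.48, adjusted p = 0.32) or the library labelled fld-6 (0.72, adjusted p = 0.53). VSP1, also of this list, was called lower in hda5-1 (-1.28, limma adjusted p = 0.018) and in no other mutant. Its RPKM was 25.7, 44.8 and 26.3 in hda5-1 and 67.3, 95.6 and 67.4 in Col. NAC019 fell by 2.04, 1.41 and 1.60 in hda6-6, hda5-1 and fve-4, the thionin gene THI2.1 rose by 1.63 in hda5-1, and the aminotransferase gene TAT3 fell by 1.44 there. THI2.1 was near the floor, with an RPKM of 0.053 to 0.161 in Col and of 0.305 to 1.04 in hda5-1.

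Other gene groups moved with the genotypes compared. Of 17 genes of the early wound and touch response, 7 were lower in hda6-6, 8 in hda5-1, 14 in hda9-1, 13 in fve-4 and 8 in the library labelled fld-6, and 2, 2, 1, 1 and 1 were higher, with medians of -0.79, -1.10, -1.95, -2.67 and -1.60 over the 17. In that order 4.96%, 3.94%, 3.75%, 3.98% and 1.13% of all genes were called lower and 7.95%, 5.51%, 2.1%, 3.9% and 0.677% higher. The zinc finger gene ZAT10 had an RPKM of 157 to 203 in Col and of 6.11 to 63.03 in the mutants, RRTF1 fell in hda9-1 (-2.26) and fve-4 (-3.59), and CML37 in fve-4 (-3.53). RRTF1 was low, at 1.43 to 4.25 in Col, 2.17, 0.246 and 0.0728 in hda9-1 and 0.105 in fve-4. Its hda9-1 replicate 1 lay within the Col range. CML37 had 1.98 to 3.80 in Col and 0.162, near the floor, in the 1 library of fve-4. The calmodulin-like gene TCH3 had 75.8 to 123 in Col, 1207 to 1428 in hda6-6 and 1513 to 2308 in hda5-1. TCH4 had 127 to 278 in Col, 907 to 1916 in hda6-6 and 435 to 771 in hda5-1. Summed over the 17 genes the RPKM was 1096 to 1865 in Col, 2668 to 4175 in hda6-6 and 2300 to 3564 in hda5-1. The sum was 553 to 693 in hda9-1, 606 in fve-4 and 1143 in the library labelled fld-6. TCH3 and TCH4 made up most of the sum in hda6-6 and hda5-1. The higher sums of these mutants do not describe the list as a whole, whose medians were -0.79 and -1.10 there. Col replicate 2 was the highest Col library for all 10 jasmonate genes and for all 17 early wound and touch genes, and for 45.2% of all genes tested.

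Among clock genes with a morning peak (7 tested), calls were all in the lower direction, with 4 in hda6-6, 4 in hda5-1, 5 in hda9-1, 4 in fve-4 and 1 in the library labelled fld-6. In that order 4.96%, 3.94%, 3.75%, 3.98% and 1.13% of all genes were called lower. LHY was called in no mutant (-0.66 to -0.25), nor was PRR7 (-0.85 to -0.17). LHY was near the floor, with an RPKM of 0.181 to 0.686 over all libraries, where PRR7 had 13.1 to 28.0. CCA1, PRR9 and RVE8 were also low, at 2.92 to 3.53, 2.60 to 3.22 and 1.22 to 1.53 in Col. The summed RPKM of all 7 morning genes was 67.8 to 72.8 in Col, 22.2 to 29.5 in hda6-6, 39.8 to 42.2 in hda5-1, 25.5 to 32.2 in hda9-1, 30.4 in fve-4 and 51.6 in the library labelled fld-6. In hda6-6, hda5-1, hda9-1 and fve-4, CCA1 fell by 2.13, 1.95, 2.49 and 2.96 (log2), LNK1 by 2.43, 1.48, 2.28 and 2.43 and RVE8 by 1.11, 1.30, 1.39 and 1.61, and PRR9 fell in all 5 mutants by between 2.07 and 2.89. Of 7 evening-phased genes, 2, 2, 1, 2 and 1 were lower in hda6-6, hda5-1, hda9-1, fve-4 and the library labelled fld-6, with PRR5 lower in each and GI in hda6-6, hda5-1 and fve-4, and PRR3 was higher in fve-4. The shares of all genes called lower are those given for the morning genes, and 3.9% were called higher in fve-4. The part of the wound, touch and clock genes in the jasmonate gene levels was not tested.

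Among the tissue markers, 2 of 8 leaf genes were lower in fve-4 (CAB2, -2.27, and CAB3, -1.10) and none in another mutant. Of 8 root genes 1 was higher in hda6-6 (EXPA7, 1.17) and 2 in hda9-1 (PRP3, 1.16, and COBL9, 1.07). Of 6 flower genes tested SEP3 was lower in hda6-6, hda5-1 and the library labelled fld-6 and PI higher in fve-4, all at an RPKM under 10. Of all genes, 4.96% were called lower in hda6-6, 3.94% in hda5-1, 3.98% in fve-4 and 1.13% in the library labelled fld-6. Called higher were 7.95% in hda6-6, 2.1% in hda9-1 and 3.9% in fve-4. The part of the tissue markers in the levels of the 10 genes was not tested.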

How the data were processed

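Poly-A RNA was sequenced on an Illumina HiSeq instrument, base calls were made with CASAVA 1.8, and the submitters' processing notes name Bowtie2 (version not given in the sources used here) and TAIR10. The authors deposited RPKM values (reads scaled for exon length and library size, computed in RackJ) for 33602 genes in each of 14 libraries, with no counts, so no count test was used. Depth was worked out from the smallest increments of RPKM and is approximate (17800000 to 25500000 mapped reads); 27.2% to 32.1% of genes were listed at 0 in a library.

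Values were tested as log2(RPKM + 0.1) with limma 3.58.1 (trend, R 4.3.3) in a single fit over all 14 libraries with genotype as the only term, for genes above RPKM 0.1 in at least 3 libraries (23187 genes). For fve-4 and fld-6, with 1 library each, the tests borrow the spread of the genotypes with 3. A fold change on this scale understates the change of low genes. Each of the 8 comparisons had its own Benjamini-Hochberg adjustment, and calls needed an adjusted p under 0.05 and 2-fold, after the study's fold limit; the study's own t-test was not used because a group with 1 library cannot support it. With 3 libraries against 3, an exact permutation test of 1 gene cannot reach a p under 0.1 and was not run. The procedure was tested on simulated data.

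Named in the text are all 10 genes, the 5 mutated genes, from each other gene list up to 4 called genes with the largest change against Col, and the 3 genes most like each gene called in at least 2 mutants. LOX6 and AOC4 complete their families, and JAZ1, IAR3, TCH4 and VSP1 were added as further called genes. The 10 genes and the lists were chosen with earlier results of these data known. Locus identifiers were matched to the TAIR10.1 RefSeq annotation (32835 of 33602 found), whose sequences and positions are used; the files hold no coordinates. Protein identity was computed with Biopython 1.88. Alternatives were other pseudocounts, filters, scaling, call rules, a fit of the compared groups alone, the replicate number as a block, and leaving out each library.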

Additional observations from a re-analysis of the deposited data

Results flagged for a closer look

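Differences between mutants that passed the direct limma test are listed here because the effects of 2 mutants differed under the same contrast with Col. Between hda6-6 and hda5-1 the log2 fold changes were -2.02 for LOX3, -1.99 for LOX4, -1.60 for AOC1, -1.11 for AOC2 and -1.58 for OPR3, each lower in hda6-6. Between hda5-1 and hda9-1 they were 2.40 for LOX3, 2.70 for LOX4, 1.02 for AOC1, 1.32 for AOC3 and 2.28 for OPR3, each higher in hda5-1. Groups held 1 or 3 libraries, so no single library was tested as an outlier.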

How the results depend on the processing

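Of 960 log2 fold changes recomputed under the alternatives, 922 kept their direction and their side of the threshold, 11 lost the call, 9 gained it and 18 changed sign. None of the 18 had an adjusted p under 0.05 under either setting.

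In hda6-6 against Col the number of jasmonate genes called (1) became 0 with a pseudocount of 1 or median-of-ratios scaling, 2 with the replicate block, 3 with no fold limit and 2 with an unadjusted p. In hda9-1 against Col (1) it became 6, and between hda6-6 and hda9-1 (0) it became 5, both with no fold limit. Leaving out 1 library gave 0 to 2 in hda6-6, 1 to 3 in hda9-1, 5 to 6 in hda5-1, 5 in fve-4, 4 to 5 in the library labelled fld-6, and between mutants 4 to 5 for hda6-6 against hda5-1, 0 to 1 for hda6-6 against hda9-1 and 4 to 5 for hda5-1 against hda9-1.

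The values that changed sign were small. With median-of-ratios scaling, LOX3 in fve-4 had -0.057, ACX1 had -0.034 in hda5-1, -0.15 in fve-4 and -0.00875 in the library labelled fld-6, and JAR1 had -0.014 in the latter and 0.027 for hda6-6 against hda9-1. Leaving out 1 library gave ACX1 -0.099 to 0.16 in hda5-1, -0.018 to 0.076 in the library labelled fld-6 and -0.091 to 0.16 for hda6-6 against hda5-1, and JAR1 -0.070 to 0.13, -0.036 to 0.062 and -0.10 to 0.00918 in hda5-1, the library labelled fld-6 and hda6-6 against hda9-1. It gave LOX4 -0.17 to 0.92 and AOC3 -0.30 to 0.18 in hda9-1, and LOX2 -0.28 to 0.25 for hda6-6 against hda5-1. The cause was not tested.

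Correlations of the deviations of same-numbered libraries ran from -0.07 to 0.17. Of the 6 between libraries numbered 1, 5 were over 0.1 (0.088 to 0.17), and of the 12 between those numbered 2 or 3, 1 was. Not every pair passed 0.1 and the labels name no shared batch, so the numbers were not taken to pair the samples. With the replicate block JAR1 in the library labelled fld-6 had -0.099, LOX4 was called in hda6-6 (1.05) and LOX3 in the library labelled fld-6 (1.44).

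Counts over all genes depended on the pseudocount and on the fold limit. With a pseudocount of 1, 1623 genes in place of 2993 were called in hda6-6, 1306 in place of 2192 in hda5-1, 706 in place of 1358 in hda9-1, 1080 in place of 1829 in fve-4, 584 in place of 1241 for hda6-6 against hda5-1, 813 in place of 1840 for hda6-6 against hda9-1 and 740 in place of 1452 for hda5-1 against hda9-1. With no fold limit the counts in the same order were 7807, 6078, 5743, 5149, 2858, 5882 and 4820, and 716 in place of 420 in the library labelled fld-6, where the unadjusted p gave 1054. Genes above RPKM 1 gave 808 for hda6-6 against hda5-1. The absence of counts limits the weight of low genes, LOX4 above all.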
